A study of Mus musculus with 26 samples.

Results

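The lungs of mice given the higher dose of NM-401 were compared with control lungs. NM-401 is a multiwalled carbon nanotube, a fibre of rolled carbon sheets, distributed as a reference material and made of long, stiff, thick tubes. The members were chosen by their labels: the 5 animals labelled with 128 µg per mouse of NM-401 against the 5 animals titled as controls, which is 10 of the 25 animals and 10 of the 26 arrays of the study. The study as a whole gave NM-401 and a second multiwalled nanotube, Mitsui XNRi-7, at 42.7 or 128 µg per mouse, 5 animals a group, and read lung RNA on 2-colour Agilent arrays, Cy5 for the animal and Cy3 for a universal mouse reference RNA.

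All the animals, controls included, were MutaMouse, a strain that carries a bacterial reporter transgene for counting mutations, about 12 weeks old. Nanotubes in mouse serum were instilled into the trachea 4 times at weekly intervals, and the lungs were collected 56 days after the final dose. The labels do not say whether the dose is per instillation or in total. The controls are vehicle controls in the design text and animals gavaged with olive oil in the sample labels, so an effect of serum and of repeated instillation cannot be told apart from that of the nanotubes if the latter is right. The sample labels call the mice female and the design text calls them male. RNA came from random pieces of whole lung, so fewer cells of a type and less RNA per cell cannot be told apart in any value below.

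Library checks came first. The defining genes of lung were present: Sftpc and Sftpb of alveolar type 2 cells, Ager of type 1 cells, Scgb1a1 of club cells, Foxj1 of ciliated cells, Cldn5 and Cdh5 of endothelium and Marco of macrophages were well above background in all 10 animals. The exposed animals 1 to 5 lay on slides 3, 1, 1, 4 and 4 and the controls 1 to 5 on slides 1, 2, 3, 4 and 1, so slides 1, 3 and 4 held both groups. On those slides the median change of the lipid-laden macrophage list described first below was 1.47, 1.99 and 1.73, against 1.73 over all animals. With slide as a block the fit called 9406 features. The groups sat in different array columns, 1 and 2 for the exposed and mostly 3 and 4 for the controls, and a fit with column as a block called 6291.

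One library went against the others. In exposed animal 2 both probes for Xist, the RNA that coats the silenced X chromosome of female cells, were not well above background, while both were in the other 9 animals. The log2 ratio of the brighter Xist probe was -3.04 in animal 2 and between -0.28 and 0.69 in the other 9. The Y genes Ddx3y and Kdm5d were not well above background in any of the 10 animals, animal 2 included, both probes of Uty were so in 1 animal each, and Eif2s3y, a Y gene with a close copy on the X, was so in 9. Animal 2 also had the highest fat-cell genes among the exposed lungs, for example Cfd, which encodes adipsin, at 8.24 against 1.97 to 3.59 in the others, and Adipoq, which encodes adiponectin, at 4.77 against 0.049 to 0.66. High fat-cell genes were not limited to this animal: Plin1 was 3.27 in exposed animal 2 and 4.53 in control 2. The part of exposed animal 2 in the results was not tested beyond leaving it out. Without animal 2 the comparison called 7746 features, of which 7292 were called with it, and values without it stand beside the genes described whose call changed.

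Long, stiff nanotubes are hard for macrophages to digest. Lung macrophages take up inhaled particles into lysosomes, and particles that are not cleared are known to keep macrophages activated, to draw in monocytes through chemokines, and to set off repair of the epithelium and deposition of matrix. The values below are log2 ratios of Cy5 over Cy3, so 0 is the level of the reference RNA, a difference of 1 is a doubling, and a level says nothing about one gene against another. Values are listed for animals 1 to 5 in order. Differences are exposed minus control, and the error after ± is the standard error from the fit over all groups, with n = 5 per group. A feature is 1 gene, or 1 transcript where the arrays' accession matched no gene symbol, and it was called where its Benjamini-Hochberg adjusted p from limma was under 0.05. A gene said to rise or fall was called, and the adjusted p is printed for the genes shown by animal and for those not called.

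Of 22950 features tested, 7976 were called, 34.8%: 4222 higher in the exposed lungs, 18.4%, and 3754 lower, 16.4%. These shares are the background for each count of genes below. Of all features, 5169, 22.5%, had groups that did not overlap in any animal. The changes were larger upward than downward. At least 4-fold rises were called in 160 features and at least 4-fold falls in 10, and at least 1.5-fold changes in 1642 and 978. The median change over all features was near 0, at -0.0045. With each array centred on its median in place of loess, that median moved to 0.17 and the fit called 1064 features, 951 of them higher, 89.4% against 52.9%; falls below are relative to the loess centre. Lists of genes were drawn up by cell type or pathway, and a list is described by its counts and its median. A member that passed the brightness filter only because the exposed lungs were bright had to be higher there, so such members are counted where a list holds any and are no support for it.

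The genes of lipid-laden, lysosome-rich macrophages stood highest. Of 30 members tested among 31 listed, 27 were called higher and 1 lower, with a median change of 1.73, and 1 passed the filter only through exposed groups. Gpnmb, a transmembrane glycoprotein of phagocytes, was -2.34, -2.91, -2.30, -2.58 and -1.94 in the controls and 3.25, 1.68, 2.79, 2.40 and 3.10 in the exposed lungs. Trem2, the receptor for lipids and dying cells on macrophages, was -2.08, -2.39, -2.19, -1.81 and -2.01 in the controls and 2.86, 1.79, 2.80, 2.45 and 2.89 in the exposed lungs. Spp1, which encodes the secreted matrix protein osteopontin, was -4.30, -3.38, -3.33, -3.55 and -3.47 in the controls and 1.85, 1.07, 0.66, 0.57 and 1.51 in the exposed lungs. In none of the 3 genes did the groups overlap, and the lowest exposed lung of Gpnmb and of Trem2 was animal 2. The changes were 5.05 ± 0.35 (adjusted p = 4.8e-10) for Gpnmb, 4.66 ± 0.29 (adjusted p = 1.7e-10) for Trem2 and 4.74 ± 0.40 (adjusted p = 6.5e-09) for Spp1, or 33.2-fold, 25.2-fold and 26.7-fold. Fabp5, a fatty acid carrier, rose by 2.43 ± 0.21. Abcg1, a cholesterol exporter, and the fatty acid carrier Fabp4 did not pass, at 0.29 ± 0.13 (adjusted p = 0.081, and 0.41 without animal 2, adjusted p = 0.0074) and 0.30 ± 0.68 (adjusted p = 0.78). The member that fell was Cd36, a fatty acid receptor, by 0.40 ± 0.11. Without animal 2 the counts were 27 higher and 1 lower.

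**Figure D1:**
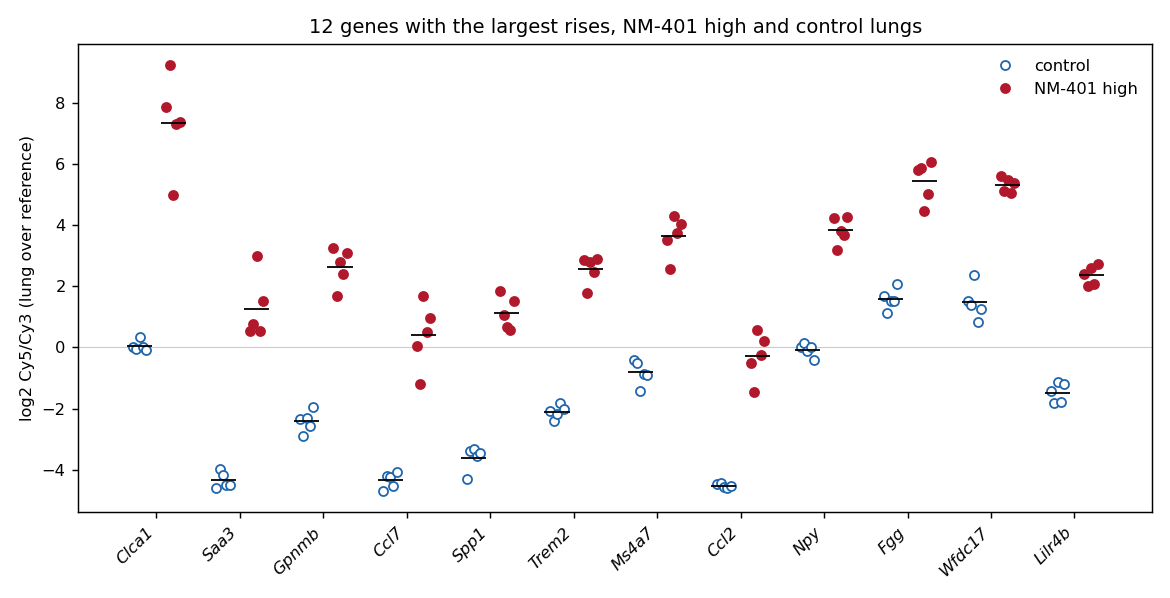
The plot shows the log2 Cy5/Cy3 ratio of the 12 genes with the largest rises in each of the 5 control lungs (open circles) and the 5 NM-401 high lungs (filled circles), with a bar at each group mean. Every exposed lung lies above every control in all 12 genes; Clca1 spans the widest range among the exposed, from 4.98 to 9.23.

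Most lysosomal genes rose. Lysosomes are the acid compartments in which a macrophage digests what it has taken up, and their genes are known to be driven in concert by MITF, TFEB and related factors. Of 45 members tested among 46 listed, 37 were called higher and 0 lower, with a median change of 0.95. Ctsb and Ctsd, which encode the proteases cathepsin B and D, rose by 2.74 ± 0.24 (adjusted p = 9.4e-09) and 2.67 ± 0.23. Ctsb was -0.36, -0.082, -0.32, -0.11 and -0.30 in the controls and 2.67, 1.62, 2.78, 2.48 and 3.00 in the exposed lungs, without overlap. Atp6v0d2, a subunit of the proton pump found in macrophages and osteoclasts, rose by 2.28 ± 0.18, and pump subunits common to most cells rose less, such as Atp6v1a by 0.70 ± 0.091. Psap, the precursor of the saposins that help lipid-digesting enzymes, rose by 2.07 ± 0.20, and Gusb, which encodes beta-glucuronidase, by 1.99 ± 0.17. Of the factors, Mitf rose by 0.95 ± 0.16 and Tfe3 by 0.27 ± 0.077, and Tfeb was at 0.065 ± 0.10 (adjusted p = 0.67). Of members not called, Manba, Asah1 and Mcoln1 had the smallest p, with changes of 0.30, 0.25 and 0.11. The list mean, taken relative to the control mean, was 1.15, 0.73, 1.15, 0.95 and 1.19 in exposed animals 1 to 5, lowest in animal 2, and no control was above 0.076.

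The promoters of these genes can be read in RefSeq's mouse build GRCm38.p6 for 36 of the 45 tested members. The palindrome TCACGTGA, part of the element that those factors are known to bind and which holds the E-box CACGTG, lay in the 250 bases before the start of 5 of them, 13.9%. It lay there in 0.907% of all 27025 genes with a promoter and in 1.58% of the 11777 of them that were tested; both strands were searched. Of the 5 members, Ctsd, Ctsa and Atp6v1a were called higher and Gla and Mcoln1 were not called, at -0.047 and 0.11, which is 3 of 29 members called higher and 2 of 7 not called. The windows of the 3 called members are shown because they belong to genes that rose, with the palindrome in capitals. They are read on the gene's own strand, Ctsd at chr7:142387904-142387941 (minus strand), Ctsa at chr2:164833745-164833772 (plus strand) and Atp6v1a at chr16:44139369-44139406 (minus strand).
Ctsd: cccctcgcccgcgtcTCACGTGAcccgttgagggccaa
Ctsa: acaatgagcaaactgTCACGTGAtgcag
Atp6v1a: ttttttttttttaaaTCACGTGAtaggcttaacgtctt
A match is a description of letters and not a measured binding site.

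Genes of resident alveolar macrophages split. These cells live in the air spaces, clear surfactant and depend on the growth factor GM-CSF. Of 22 members tested, 9 were called higher and 7 lower, with a median change of 0.13, and 2 passed the filter only through exposed groups. Krt79, a keratin listed among their markers, was 4.28, 3.60, 4.09, 4.12 and 4.22 in the controls and 1.40, 3.74, 1.12, 1.48 and 1.75 in the exposed lungs. Cidec, a lipid droplet protein also made by fat cells, was 3.80, 5.33, 3.10, 3.85 and 3.68 in the controls and 0.90, 4.42, 1.17, 1.82 and 1.14 in the exposed lungs. In both genes exposed animal 2 lay within the control range and the other 4 lay below every control. The falls were 2.16 ± 0.53 (adjusted p = 0.0023) and 2.06 ± 0.51 (adjusted p = 0.0025), and without animal 2 the changes were -2.62 and -2.70. Fabp1, a fatty acid carrier, fell by 1.53 ± 0.54, the ribonuclease gene Ear1 by 1.15 ± 0.26 and Siglecf, the lectin by which these cells are sorted, by 0.87 ± 0.19. Siglec1, a lectin that interferon is known to raise, rose by 2.02 ± 0.28, Csf2rb, the signalling chain of the GM-CSF receptor, by 1.99 ± 0.14 and Itgax, which encodes CD11c, by 1.55 ± 0.14. Pparg, the factor that sets the fate of these cells, was at 0.093 ± 0.085 (adjusted p = 0.45) and the scavenger receptor Marco at -0.29 ± 0.47 (adjusted p = 0.68).

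Most genes of monocytes and of macrophages derived from them rose. Of 23 members tested among 24 listed, 18 were called higher and 0 lower, with a median change of 1.22, and 1 passed the filter only through exposed groups. Ms4a7, a membrane protein of monocyte-derived macrophages, was -0.40, -0.50, -1.42, -0.88 and -0.89 in the controls and 3.52, 2.57, 4.31, 3.75 and 4.04 in the exposed lungs, without overlap. It rose by 4.45 ± 0.32 (adjusted p = 1.0e-09). Ly6i rose by 3.18 ± 0.50, the complement subunit C1qb by 2.20 ± 0.22, Adgre1, a surface protein of macrophages, by 1.92 ± 0.19, and Plac8 by 1.72 ± 0.34. Arg1, the arginase of alternatively activated macrophages, rose by 1.88 ± 0.29, and Nos2, the nitric oxide synthase of classically activated ones, by 0.63 ± 0.17. Ccr2, the receptor by which monocytes leave the blood, did not pass at 0.34 ± 0.15 (adjusted p = 0.075), nor did Cd38 at -0.30 ± 0.14 (adjusted p = 0.10). Receptors that take up particles followed: 16 of 23 tested members (1 passed the filter only through exposed groups) were called higher and 2 lower, with a median change of 0.70. Msr1, the class A scavenger receptor, rose by 3.37 ± 0.30, the endotoxin co-receptor Cd14 by 2.87 ± 0.19, the antibody receptor Fcgr3 by 2.45 ± 0.22, and the lectins Clec4d and Clec4e by 2.94 ± 0.26 and 2.20 ± 0.19. Stab1 and Cd36 fell, by 0.22 ± 0.072 and 0.40 ± 0.11, and Stab1 was at 0.0088 with median centring. Itgam, the complement receptor chain CD11b, was at 0.089 ± 0.056 (adjusted p = 0.24).

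Chemokines, the secreted proteins that draw leukocytes in, held several of the largest rises of the whole comparison. Of 29 members tested among 34 listed, 17 were called higher and 2 lower, with a median change of 0.88, and 3 passed the filter only through exposed groups. Leaving the brightness filter off gave a median of 0.64 over 33 members. Ccl7 was -4.69, -4.20, -4.23, -4.55 and -4.08 in the controls and 0.048, -1.19, 1.68, 0.50 and 0.95 in the exposed lungs. Ccl2 was -4.47, -4.44, -4.56, -4.58 and -4.53 in the controls and -0.51, -1.44, 0.58, -0.23 and 0.22 in the exposed lungs. Both are ligands of Ccr2, and in both the exposed lungs lay above the controls throughout, with animal 2 the lowest of the 5. They rose by 4.74 ± 0.43 (adjusted p = 1.7e-08) and 4.24 ± 0.38 (adjusted p = 1.3e-08), or 26.8-fold and 18.9-fold. The third Ccr2 ligand of the list, Ccl12, rose by 3.01 ± 0.30. Ccl3, Ccl4 and Ccl9, which draw monocytes and T cells, rose by 2.67, 3.32 and 2.95. Of the neutrophil attractants, Cxcl5 was -2.75, -2.57, -2.39, -3.99 and -3.79 in the controls and -0.66, 1.08, 0.70, 1.32 and -0.012 in the exposed lungs and rose by 3.58 ± 0.39 (adjusted p = 2.0e-07), and Cxcl1 rose by 2.17 ± 0.27. Cxcl10 and Cxcl9, attractants of T cells known to answer to interferon, rose by 3.44 ± 0.60 (adjusted p = 8.5e-05) and 2.05 ± 0.41; Cxcl10 was 0.61, -0.48, 3.29, 3.19 and 2.29 in exposed animals 1 to 5, high in animals 3 to 5 and lower in 1 and 2. Ppbp, a platelet chemokine, fell by 1.67 ± 0.25 and Cx3cl1, the membrane-bound chemokine of endothelium and epithelium, by 0.96 ± 0.12. Cxcl13, which guides B cells, did not pass at 0.88 ± 0.59 (adjusted p = 0.27), with 5.30 in animal 2 against 1.15 to 3.17 in the others; without animal 2 its change was 0.28 (adjusted p = 0.73).

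Acute phase proteins are made in bulk by the liver, and some are made by the lung itself. Of 27 members tested among 32 listed, 13 were called higher and 2 lower, with a median change of 0.78, and 6 passed the filter only through exposed groups. With dim probes kept, the median over 31 members was 0.40. Saa3, a serum amyloid made outside the liver, was -4.60, -3.97, -4.16, -4.51 and -4.51 in the controls and 0.53, 0.76, 2.98, 0.55 and 1.53 in the exposed lungs. It rose by 5.62 ± 0.46 (adjusted p = 5.3e-09), or 49.1-fold, and exposed animal 3 was the highest. Fgg, the gamma chain of fibrinogen, was 1.70, 1.13, 1.52, 1.53 and 2.08 in the controls and 5.81, 5.88, 4.48, 5.01 and 6.06 in the exposed lungs and rose by 3.86 ± 0.44 (adjusted p = 3.6e-07), while its partner chains Fga and Fgb were at 0.91 ± 0.37 (adjusted p = 0.059) and 0.045 ± 0.82 (adjusted p = 0.98). Orm1 and Orm2, which encode acid glycoproteins, rose by 2.37 ± 0.30 and 2.79 ± 0.32, and Orm3 fell by 1.84 ± 0.22 (adjusted p = 9.4e-07). Orm3 was 2.21, 3.16, 2.46, 2.46 and 2.51 in the controls and 0.50, 0.29, 0.84, 1.36 and 0.63 in the exposed lungs, without overlap. These 3 genes lie side by side and are close copies, so a probe of one may read another. Lcn2, a protein that withholds iron from bacteria, rose by 2.21 ± 0.15. Thbd, the thrombin-binding protein of endothelium, fell by 1.5 ± 0.45. 

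Most genes of complement, the blood protein system that tags particles and cells, rose. Of 27 members tested among 28 listed, 17 were called higher and 0 lower, with a median change of 0.89, and 3 passed the filter only through exposed groups. C3, its central component, rose by 1.75 ± 0.13, Cfb, a part of the alternative pathway, by 1.49 ± 0.20, Cfi, an inactivating protease, by 1.64 ± 0.33 and C3ar1, a receptor for a fragment of C3, by 2.46 ± 0.21. The C1q chains C1qa and C1qb rose by 1.53 ± 0.16 and 2.20 ± 0.22. Without animal 2, 17 were higher and 1 lower. Cfd, the adipsin gene noted above, was at -1.23 ± 0.96 (adjusted p = 0.36, and -2.29 without animal 2, adjusted p = 0.029) with both groups spread widely.

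Of cytokines and their receptors, 15 of 28 tested members (5 passed the filter only through exposed groups) were called higher and 3 lower, with a median change of 0.37. That median was 0.20 over 34 members when dim probes were kept. Il6 was -2.31, -2.09, -2.16, -2.44 and -2.13 in the controls and -0.49, -0.37, 0.21, -0.011 and 0.32 in the exposed lungs. It rose by 2.16 ± 0.21 (adjusted p = 4.0e-08) with no overlap. Il1rn, the natural antagonist of interleukin 1, rose by 1.62 ± 0.16 and Tnf by 1.38 ± 0.13. Il1a and Il1b, the interleukin 1 ligands, did not pass, at 0.24 ± 0.11 (adjusted p = 0.097, and 0.33 without animal 2, adjusted p = 0.019) and 0.56 ± 0.29 (adjusted p = 0.14). Csf1, the growth factor of macrophages, rose by 0.95 ± 0.14, and Socs3, a feedback inhibitor of cytokine signalling, by 0.92 ± 0.13. Il6ra, the receptor chain for interleukin 6, fell by 0.70 ± 0.12.

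Most genes for sensors of microbes and of damage rose, and none of those tested fell. Of 27 members tested among 28 listed, 19 were called higher and 0 lower, with a median change of 0.55, and 1 passed the filter only through exposed groups. Tlr13 and Tlr2 rose by 2.46 ± 0.19 and 1.65 ± 0.13, the inflammatory caspases Casp1 and Casp4 by 1.52 ± 0.20 and 1.5 ± 0.18 and the adaptor Pycard by 1.25 ± 0.21, while Nlrp3, the sensor that crystals and fibres are known to trigger, was at 0.12 ± 0.071 (adjusted p = 0.20). The enzymes that make superoxide and nitric oxide held 11 of 14 tested members called higher and 1 lower (median 0.91). Of the 14, 4 passed the filter only through exposed groups. Ncf4 and Cyba, subunits of the phagocyte oxidase, rose by 1.95 ± 0.21 and 1.53 ± 0.16, and Nox4, the oxidase of mesenchymal and vessel cells, fell by 1.05 ± 0.20.

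Neutrophil genes moved in part. Of 20 members tested among 24 listed, 9 were called higher and 0 lower, with a median change of 0.38, and 2 passed the filter only through exposed groups. Over 23 members, with the brightness filter left off, the median was 0.18. Cxcr1, a receptor for neutrophil attractants, rose by 2.40 ± 0.27 and Il1r2 by 1.06 ± 0.20. Ltf, which encodes lactoferrin and is also made by airway glands, was 2.59, 1.54, 2.50, 2.59 and 1.99 in the controls and 5.20, 6.77, 5.63, 5.99 and 5.05 in the exposed lungs and rose by 3.49 ± 0.37 (adjusted p = 1.5e-07). The defining neutrophil genes S100a8, S100a9, Csf3r and Cxcr2 were at 0.38, -0.31, -0.13 and -0.30, none called. Genes of mast cells, basophils and eosinophils had 2 of 12 tested members called higher and 3 lower (median 0.15). Of the 12, 2 passed the filter only through exposed groups, and the median over 16 members without the brightness filter was 0.044. Siglecf, shared with alveolar macrophages, and Gata2, also a gene of endothelium, were 2 of the 3 that fell. The mast cell proteases Cpa3, Cma1 and Tpsb2 were at 0.71 ± 0.38 (adjusted p = 0.16), 0.46 ± 0.27 (adjusted p = 0.19) and 0.40 ± 0.17 (adjusted p = 0.079).

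Mucus genes held the largest single rise. Of 19 members tested among 23 listed, 17 were called higher and 1 lower, with a median change of 1.55, and 5 passed the filter only through exposed groups. The size of that median rests in part on the filter. Without the brightness filter 22 members could be tested, of which 15 rose and 1 fell, and the median was 0.97. Clca1, a protein secreted by goblet cells with the mucins, was 0.0072, -0.053, 0.34, 0.031 and -0.076 in the controls and 7.88, 9.23, 4.98, 7.31 and 7.37 in the exposed lungs. It was not well above background in any control lung, so its rise is given as a bound. The Cy5 signal alone gave at least 219-fold over the lowest signal well above background, and the ratios to Cy3 differed 158-fold. The smaller is used as the bound for such genes, here at least 158-fold, with an adjusted p of 5.4e-07 in the limma fit. Clca1 passed the filter only through exposed groups, so that p is no support for its rise. Such a bound is an estimate from group means and no confidence limit. Single lungs can lie below it, as exposed animal 3 did at 4.98. Muc5b, the main gel-forming mucin of mouse airways, was 2.61, 1.33, 1.32, 1.35 and 0.95 in the controls and 5.05, 5.56, 4.82, 5.12 and 5.05 in the exposed lungs. Its groups did not overlap, and it rose by 3.61 ± 0.25 (adjusted p = 4.8e-10). Muc5ac, the second gel-forming mucin, rose by 1.71 ± 0.29, Slc26a4, the anion exchanger pendrin, by 3.23 ± 0.19, and Agr2, which helps fold mucins, by 2.55 ± 0.31. Itln1, a lectin in mucus, was -1.40, 4.08, 1.01, 0.87 and -0.015 in the exposed lungs, with animal 2 far above the rest, and its change of 2.62 ± 0.85 (adjusted p = 0.018) became 1.83 (adjusted p = 0.069) without that animal. Without animal 2, 13 members were higher and 1 lower.

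Type 2 immunity is the arm known for mucus, eosinophils and alternatively activated macrophages. Of 23 members tested among 28 listed, 12 were called higher and 4 lower, with a median change of 0.54, and 4 passed the filter only through exposed groups. All 28 could be tested without the brightness filter, and their median was 0.40. Ccl8 rose by 2.91 ± 0.27, the alarm cytokine Il33 by 2.03 ± 0.20, Ccl11, which draws eosinophils, by 1.33 ± 0.22, and Retnla, a secreted product of type 2 macrophages and airway cells, by 1.49 ± 0.14. Gata3, a factor of type 2 lymphocytes, and Postn, the matrix protein periostin, fell by 0.69 ± 0.14 and 0.63 ± 0.14. The cytokine genes Il4, Il5 and Il13 did not pass the brightness filter.

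**Figure D2:**
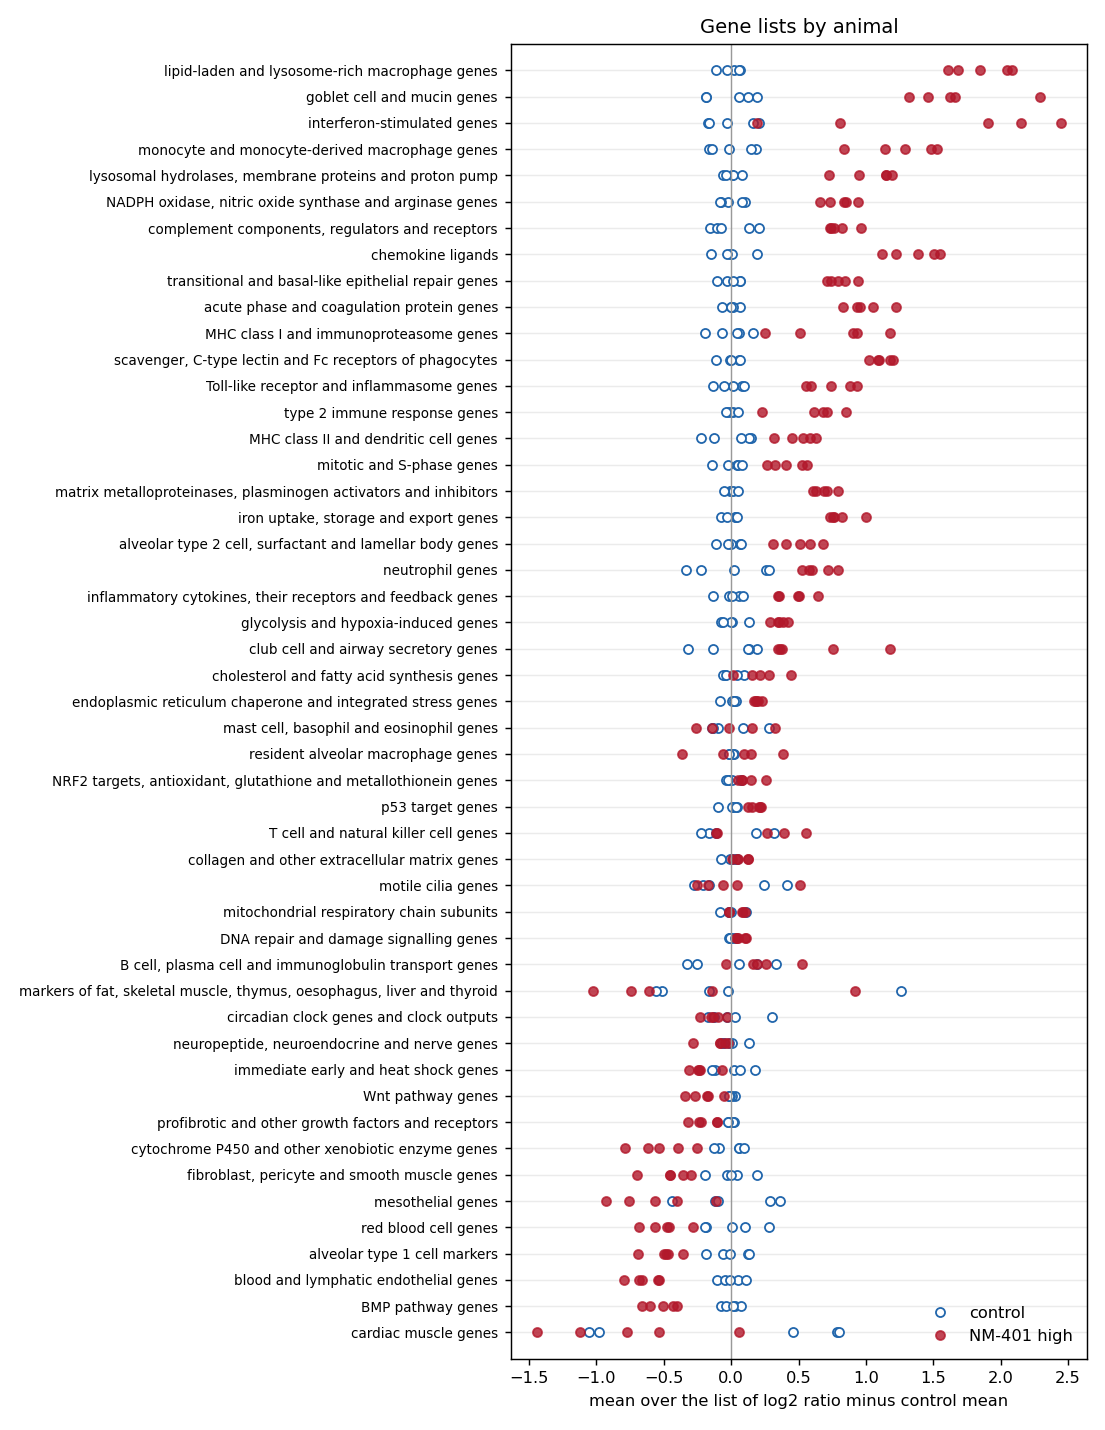
The plot gives, for each gene list, the mean over its tested genes of the log2 ratio minus the mean of the 5 controls, with open circles for the control lungs and filled circles for the NM-401 high lungs. Lists are ordered by their median change: the lipid-laden macrophage list is at the top with exposed lungs between 1.61 and 2.08, and the BMP list is among the lowest with exposed lungs between -0.67 and -0.41.

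Genes of B cells and plasma cells held called rises and no called fall. Of 25 members tested among 26 listed, 7 were called higher and 0 lower, with a median change of 0.014, and 1 passed the filter only through exposed groups. The background share called higher is 18.4%. Jchain, which joins secreted antibodies, rose by 2.25 ± 0.43, Cd72 by 1.64 ± 0.26 and Tnfrsf17, a receptor of plasma cells, by 0.63 ± 0.19, while the B cell genes Cd79a and Ms4a1 were at -0.19 and -0.46, neither called. For T cells and natural killer cells, 7 of 31 tested members (2 passed the filter only through exposed groups) were called higher and 2 lower, with a median change of 0.091. Il7r, Pdcd1, Icos and Foxp3, the last the factor of regulatory T cells, rose by 1.82, 1.42, 1.20 and 0.99. Gzma, a cytotoxic granule protease, fell by 0.80 ± 0.30 (-0.74 without animal 2, adjusted p = 0.077). The receptor chains Cd3d, Cd3e and Cd3g were at 0.024, 0.13 and 0.32, none called.

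Genes of antigen presentation held called rises and no called fall. Class I, which shows peptides from inside the cell, had 13 of 17 tested members called higher and 0 lower (median 0.74), and class II with dendritic cell genes had 13 of 22 tested members called higher and 0 lower (median 0.45). H2-K1 rose by 1.42 ± 0.24, B2m, the shared light chain, by 1.20 ± 0.26 and the peptide pump Tap1 by 1.26 ± 0.29. Ctss, the protease that trims the class II chaperone, rose by 2.60 ± 0.30, Cd74, the chaperone itself, by 0.87 ± 0.13 and the class II chain H2-Aa by 0.53 ± 0.18 (0.50 without animal 2, adjusted p = 0.052), which turned to -0.032 with the scanner software's own ratios. H2-Ab1 and H2-Eb1 were at 0.19 ± 0.11 (adjusted p = 0.19) and 0.13 ± 0.075 (adjusted p = 0.18).

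Most interferon-stimulated genes rose, and they rose unevenly between animals. These are the genes that cells switch on when interferons signal a virus or foreign nucleic acid. Of 39 members tested among 44 listed, 33 were called higher and 0 lower, with a median change of 1.27. Oas1a, a sensor of double-stranded RNA, was -0.72, -1.21, -1.72, -1.57 and -1.43 in the controls and 1.63, 0.56, 3.78, 3.37 and 3.09 in the exposed lungs. Irf7, the factor that amplifies the response, was -0.94, -1.41, -1.74, -2.22 and -1.32 in the controls and 0.42, -0.96, 3.12, 2.50 and 2.32 in the exposed lungs. Isg15, a ubiquitin-like modifier, was -0.41, -0.34, -0.70, -0.97 and -0.76 in the controls and 1.01, -0.38, 3.42, 2.88 and 2.58 in the exposed lungs. In the 3 genes exposed animals 3, 4 and 5 were high, animal 1 was lower and animal 2 was lowest, within the control range for Irf7 and Isg15. The rises were 3.81 ± 0.57 (adjusted p = 1.4e-05), 3.01 ± 0.73 (adjusted p = 0.0022) and 2.54 ± 0.65 (adjusted p = 0.0037). Over the whole list the mean relative to the controls was 0.81, 0.20, 2.45, 2.15 and 1.91 in exposed animals 1 to 5. The controls' list means ran from -0.17 to 0.20, so animal 2 lay at the top of the control range. Without animal 2, 38 of the 39 tested members were called higher in place of 33, and the median change was 1.52. With slide as a block, 30 were, and the list median within slides 1, 3 and 4 was 0.98, 0.75 and 1.89. Groups did not overlap in 11 of the 39 members, where 22.5% of all features had such groups. At the lower dose of NM-401 the list means of animals 1 to 5 were 0.31, 0.20, 1.79, 1.69 and 1.88, also with 2 animals near the controls. In the Mitsui high group they were 0.94, 0.28, 0.65, 0.65 and 1.02.

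**Figure D3:**
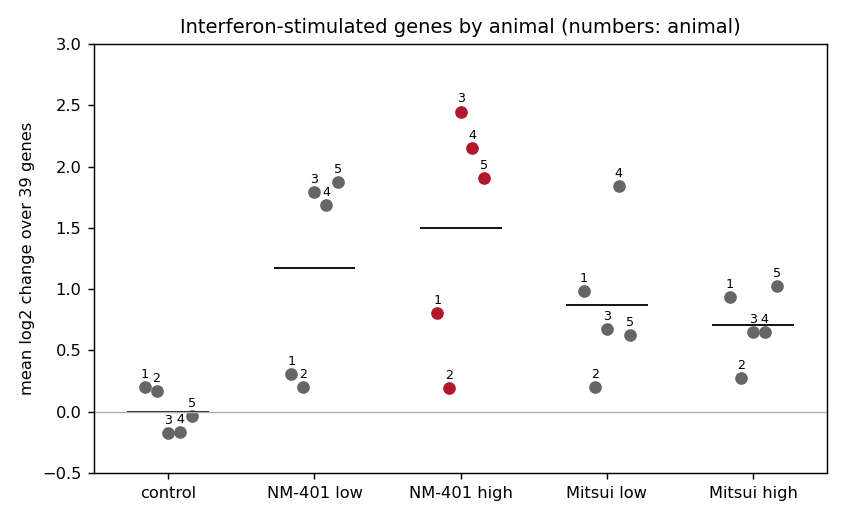
The plot shows the mean log2 change of the 39 interferon-stimulated genes (relative to the control mean) in each of the 25 animals, by group, with a bar at each group mean. In the NM-401 high group 3 animals lie between 1.91 and 2.45, and the other two lie at 0.81 and 0.20.

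The promoters of 29 of the 39 tested interferon genes are in the RefSeq table of build GRCm38.p6. The letters GAAANNGAA, the core of the element that the interferon factors IRF and ISGF3 are known to bind, lay on either strand in the 250 bases before the start of 17 of them, 58.6%. In all 27025 genes with a promoter the share was 8.18%, and in the 11777 tested ones 7.73%. It lay in 14 of 24 members called higher and in 3 of 5 not called. Irf7, described above, is not among the members with a match. Windows of 4 members called higher, picked among those with a match, are shown so that the repeats can be seen. They have the matched letters in capitals, where overlapping matches run together. Each is on the gene's own strand: Oas1a at chr5:120907526-120907560 (minus), Isg15 at chr4:156200861-156200911 (minus), Ifit1 at chr19:34640765-34640828 (plus) and Rsad2 at chr12:26456548-26456586 (minus).
Oas1a: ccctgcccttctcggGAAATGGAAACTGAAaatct
Isg15: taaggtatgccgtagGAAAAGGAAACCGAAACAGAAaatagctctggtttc
Ifit1: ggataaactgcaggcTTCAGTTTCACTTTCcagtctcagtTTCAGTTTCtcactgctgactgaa
Rsad2: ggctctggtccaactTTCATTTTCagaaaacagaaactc
Isg15 and Ifit1 each hold 3 matches, Oas1a holds 2 and Rsad2 1. The element in Oas1a ends 6 bases before the start and that in Isg15 58 bases before it. The rises of Ifit1 and Rsad2, both antiviral effectors, were 2.18 ± 0.55 and 1.71 ± 0.52.

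In the epithelium of the air sacs, most listed type 1 genes fell and most listed type 2 genes rose, while the defining genes Ager, Sftpc and Sftpb were not called. Type 1 cells are the thin cells of gas exchange, and type 2 cells make surfactant and renew them. Of 21 members tested among 23 listed, 1 was called higher and 17 lower, with a median change of -0.54. Cav1 and Cav2, the coat proteins of caveolae that type 1 cells share with endothelium, fell by 1.1 ± 0.13 and 0.97 ± 0.10, Aqp5, a water channel, by 0.66 ± 0.091 and Hopx by 0.33 ± 0.11, though Hopx was higher by 0.15 with median centring. Pdpn, a membrane protein of type 1 cells and lymphatic vessels, rose by 0.45 ± 0.15. Ager, the most used marker, was at -0.12 ± 0.087 (adjusted p = 0.32). Of 27 members tested, 17 were called higher and 0 lower, with a median change of 0.39. Lamp3, of the lamellar bodies that store surfactant, rose by 0.86 ± 0.11, the protease Napsa by 0.73 ± 0.11, the surfactant proteins Sftpd and Sftpa1 by 0.51 ± 0.088 and 0.32 ± 0.12 (0.31 without animal 2, adjusted p = 0.071) and the lipid enzymes Scd1 and Fasn by 1.07 ± 0.18 and 0.71 ± 0.20. Sftpc and Sftpb were at 0.10 ± 0.14 (adjusted p = 0.63) and -0.048 ± 0.11 (adjusted p = 0.77). Fabp5, at 2.43, is also on the lipid-laden macrophage list.

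Genes of transitional and basal-like repair cells rose with none lower. Of 24 members tested, 17 were called higher and 0 lower, with a median change of 0.79, and 3 passed the filter only through exposed groups. Krt5, the keratin of airway basal cells, was 0.071, 0.037, 0.14, -0.22 and -0.061 in the controls and 2.01, 2.72, 1.92, 1.94 and 1.92 in the exposed lungs. Krt14, its partner keratin, was -1.22, -1.07, -1.24, -1.56 and -1.19 in the controls and -0.18, 2.16, 0.15, 0.26 and -0.048 in the exposed lungs. The exposed lungs lay above the controls in both, with animal 2 the highest. They rose by 2.11 ± 0.33 (adjusted p = 2.4e-05) and 1.72 ± 0.35 (adjusted p = 0.00038), and without animal 2 by 1.95 and 1.30. Lgals3, which encodes galectin-3 and is shared with macrophages, rose by 2.28 ± 0.18, the stress-induced cytokine Gdf15 by 1.96 ± 0.19 and the growth factors Areg and Ereg by 1.20 ± 0.21 and 1.09 ± 0.17. Trp63, the basal cell factor, was at 0.093 ± 0.082 (adjusted p = 0.42), and Krt8 rose by 0.47 ± 0.13. In the airways, 7 of 19 tested members (2 passed the filter only through exposed groups) were called higher and 4 lower, with a median change of 0.29. Scgb3a1 rose by 2.33 ± 0.29 and Reg3g, an antibacterial lectin, by 2.44 ± 0.79, whereas Cyp2f2 and Aldh1a1 fell by 0.46 ± 0.17 and 1.03 ± 0.17 and Scgb1a1, the defining club cell gene, was at -0.39 ± 0.23 (adjusted p = 0.20, and -0.58 without animal 2, adjusted p = 0.039). Leaving out animal 2 took the median of that list to -0.033. Motile cilia genes had 0 of 26 tested members called higher and 2 lower (median 0.039), and Foxj1 was at 0.34 ± 0.15 (adjusted p = 0.096).

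Most endothelial genes fell. Of 42 members tested among 44 listed, 1 was called higher and 26 lower, with a median change of -0.55. Esm1, a secreted proteoglycan of sprouting and capillary endothelium, was 2.50, 2.60, 2.20, 2.62 and 2.48 in the controls and -0.26, 0.51, -0.17, 0.25 and 0.056 in the exposed lungs. Npr3, the clearance receptor for natriuretic peptides, was 1.91, 2.65, 2.47, 1.99 and 2.10 in the controls and 0.049, 0.70, 0.56, 0.78 and -0.25 in the exposed lungs. No exposed lung reached the lowest control in either. They fell by 2.40 ± 0.29 (adjusted p = 9.0e-07) and 1.86 ± 0.20 (adjusted p = 1.4e-07). Apln and Ednrb, of capillary endothelium, fell by 1.41 ± 0.20 and 1.24 ± 0.20, Efnb2 and Hey1, of arteries, by 1.41 ± 0.15 and 1.27 ± 0.14, and Flt1, a receptor for vascular growth factor, by 1.34 ± 0.14. Lyve1, of lymphatic vessels, fell by 1.31 ± 0.26. Of the genes that define endothelium, Pecam1 and Cldn5 fell by 0.44 ± 0.16 and 0.37 ± 0.093, and Cdh5, Kdr and Vwf were at -0.68 ± 0.69 (adjusted p = 0.49), -0.27 ± 0.13 (adjusted p = 0.10) and -0.14 ± 0.079 (adjusted p = 0.18). Selp, the adhesion protein of inflamed venules and platelets, was the one member higher, by 0.60 ± 0.11.

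Most fibroblast, pericyte and smooth muscle genes also fell. Of 36 members tested among 38 listed, 2 were called higher and 20 lower, with a median change of -0.46, and 1 passed the filter only through exposed groups. Tcf21 and Pdgfra, of alveolar lipofibroblasts, fell by 1.42 ± 0.15 (adjusted p = 1.5e-07) and 1.38 ± 0.13. Tcf21 was 4.76, 4.82, 5.00, 4.90 and 5.09 in the controls and 3.44, 3.38, 3.22, 3.77 and 3.67 in the exposed lungs. Itga8 fell by 1.25 ± 0.18, the pericyte gene Higd1b by 0.81 ± 0.11 and the smooth muscle gene Tagln by 0.69 ± 0.20, while Acta2, smooth muscle actin, was at -0.24 ± 0.12 (adjusted p = 0.12). The members higher were Cspg4 and Cygb, by 0.54 ± 0.18 (0.48 without animal 2, adjusted p = 0.050) and 0.37 ± 0.10. Mesothelial genes, of the pleural lining, had 0 of 15 tested members called higher and 7 lower (median -0.49), with Upk3b down by 0.85 ± 0.25 and Msln at -0.42 ± 0.24 (adjusted p = 0.19). Genes of heart muscle, which rodent lung holds in its large veins, had 0 of 18 tested members called higher and 1 lower (median -0.91). Of the 18, 1 passed the filter only through exposed groups. The heart muscle list mean ran from -1.06 to 0.80 in the controls and from -1.44 to 0.059 in the exposed. Red blood cell genes had 0 of 9 tested members called higher and 5 lower (median -0.49). Markers of fat, muscle, thymus, liver and thyroid had 7 tested members, of which 1 passed the filter only through exposed groups. Of the 7, 0 were called higher and 0 lower (median -0.064), 0 also at an unadjusted p under 0.05 by limma. Without exposed animal 2, 3 were called lower, the fat-cell genes Adipoq, Plin1 and Retn, at -1.71, -1.43 and -1.67. With all animals this list of markers had means from -0.56 to 1.26 in the controls and from -1.02 to 0.92 in the exposed. The highest values were those of control 2 and of exposed animal 2. Control 2 stayed in the fit that left out exposed animal 2. The part of these cell types in the other results was not tested.

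Bone morphogenetic protein genes held called falls among ligands, receptors and targets. This pathway is known to keep endothelium at rest. Of 27 members tested among 29 listed, 2 were called higher and 20 lower, with a median change of -0.59. Of the ligands, Bmp6 and Bmp3 fell by 0.90 ± 0.13 and 1.02 ± 0.18 and Bmp2 was at 0.15 ± 0.10 (adjusted p = 0.29). Of the receptors, Bmpr2, the gene mutated in inherited pulmonary hypertension, fell by 1.06 ± 0.12, Acvrl1 by 0.75 ± 0.11 and the co-receptor Eng by 0.88 ± 0.15. Of the targets, Smad6, an inhibitor the pathway induces in itself, was 3.43, 3.94, 4.25, 4.27 and 4.16 in the controls and 2.34, 2.71, 2.20, 2.84 and 2.16 in the exposed lungs. It fell by 1.56 ± 0.20 (adjusted p = 1.6e-06), and Id1 by 1.17 ± 0.30. The members higher were Id2 and the antagonist Grem1, by 0.57 ± 0.12 and 0.47 ± 0.10. Wnt genes had 4 of 24 tested members called higher and 11 lower (median -0.37), and 3 passed the filter only through exposed groups. Their median without the brightness filter was -0.15, over 29 members. The Wnt ligand Wnt2 fell by 0.75 ± 0.15 and the receptor Fzd4 by 1.03 ± 0.13, and the inhibitors Sfrp1 and Dkk2 rose by 1.13 ± 0.17 and 1.06 ± 0.14.

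Other growth factors changed in both directions. Of 39 members tested among 40 listed, 10 were called higher and 23 lower, with a median change of -0.42, and 1 passed the filter only through exposed groups. Igf1, which macrophages and fibroblasts secrete, was -1.25, 0.013, -0.81, -0.77 and -0.45 in the controls and 2.47, 1.76, 2.39, 2.45 and 2.59 in the exposed lungs. Its groups did not overlap, and it rose by 2.99 ± 0.25 (adjusted p = 6.5e-09). Inhba, the activin A chain, rose by 1.75 ± 0.16 and Pdgfc by 1.01 ± 0.10. Among the binding proteins of insulin-like growth factors, Igfbp3 and Igfbp6 fell by 1.48 ± 0.25 and 1.33 ± 0.19. Vegfd and the co-receptor Tgfbr3 fell by 1.44 ± 0.17 and 1.31 ± 0.14, and Ccn2, connective tissue growth factor, by 0.99 ± 0.14. Tgfb1, the growth factor best known for fibrosis, rose by 0.49 ± 0.12, while Tgfb2 fell by 0.38 ± 0.13.

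Matrix genes changed in both directions. Of 43 members tested among 44 listed, 10 were called higher and 7 lower, with a median change of 0.073, and 3 passed the filter only through exposed groups. The background shares are 18.4% and 16.4%. The fibrillar collagens Col3a1, Col1a1 and Col1a2 rose by 0.96 ± 0.13, 0.55 ± 0.11 and 0.47 ± 0.12. Vcan, a large proteoglycan, rose by 0.83 ± 0.15, and the basement membrane genes Nid1 and Col4a3 fell by 0.64 ± 0.091 and 0.54 ± 0.18. For proteases and their inhibitors, 18 of 31 tested members (4 passed the filter only through exposed groups) were called higher and 4 lower, with a median change of 0.41. Mmp12, the macrophage elastase, was -0.095, 0.066, -0.053, -0.38 and 0.21 in the controls and 3.81, 3.70, 3.57, 3.65 and 4.06 in the exposed lungs. Every exposed lung lay above the controls by a wide margin, and the rise was 3.81 ± 0.26 (adjusted p = 4.8e-10). Its other probes rose less, by 0.96 at the least. Adam8, Mmp19 and Mmp13 rose by 3.07 ± 0.16, 2.54 ± 0.23 and 2.12 ± 0.24, and the inhibitor Timp1 by 2.14 ± 0.16, while Timp3 and Timp2 fell by 0.72 ± 0.10 and 0.47 ± 0.10. Timp2 rests on its brightest probe, as the median of its probes was higher by 0.091.

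Genes of defence against oxidants split. Of 45 members tested, 17 were called higher and 11 lower, with a median change of 0.13, and 1 passed the filter only through exposed groups. Hmox1, which breaks down haem, rose by 1.47 ± 0.12, Gclc, the first enzyme of glutathione synthesis, by 0.96 ± 0.13, the peroxide reducer Prdx1 by 0.98 ± 0.13 and the metallothionein Mt2 by 0.97 ± 0.19. The glutathione transferases Gsta3, Gstm1 and Gstm2 fell by 1.57 ± 0.19, 0.97 ± 0.12 and 0.91 ± 0.13, and Prdx6, an enzyme of type 2 and club cells, by 0.84 ± 0.079. Of common readouts of the factor NRF2, Nqo1 fell by 0.39 ± 0.086 and Gclm was at -0.048 ± 0.085 (adjusted p = 0.72). Iron genes had 10 of 20 tested members called higher and 0 lower (median 0.40); Slc11a1, the metal pump of the phagosome, rose by 2.90 ± 0.21 and the ferritin chains Ftl1 and Fth1 by 1.16 ± 0.22 and 0.69 ± 0.10, and the exporter Slc40a1 was at -0.17 ± 0.087 (adjusted p = 0.13). Most enzymes that handle foreign chemicals fell: 1 of 26 tested members was called higher and 17 lower, with a median change of -0.43. Cyp4b1 and Fmo1 fell by 1.26 ± 0.16 and 1.1 ± 0.18, and Cyp1b1, a target of the aryl hydrocarbon receptor, rose by 0.56 ± 0.19 (0.36 without animal 2, adjusted p = 0.094). Sterol and fatty acid synthesis had 13 of 31 tested members called higher and 3 lower (median 0.28), with Sqle and Dhcr7 of the cholesterol pathway up by 0.66 ± 0.16 and 0.68 ± 0.14.

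Most genes of cell division rose, by small amounts. Of 41 members tested among 46 listed, 29 were called higher and 1 lower, with a median change of 0.44, and 2 passed the filter only through exposed groups. Mki67, the common marker of dividing cells, was -3.65, -3.85, -4.16, -3.66 and -3.70 in the controls and -2.67, -3.28, -3.12, -3.28 and -2.74 in the exposed lungs. It rose by 0.79 ± 0.15 (adjusted p = 0.00026) without overlap, Birc5 by 0.89 ± 0.17 and Uhrf1 by 0.88 ± 0.10. The one member lower was Ccnd2, by 0.36 ± 0.10. Targets of p53, the factor that answers DNA damage, had 9 of 30 tested members called higher and 4 lower (median 0.11); Cdkn1a, its cell cycle brake, rose by 0.91 ± 0.16, Bax by 0.62 ± 0.093 and Mdm2 was at 0.13 ± 0.069 (adjusted p = 0.17). DNA repair genes had 14 of 53 tested members called higher and 5 lower (median 0.027), and 3 passed the filter only through exposed groups. The background shares are 18.4% and 16.4%. Mgmt, which removes alkyl groups from guanine, rose by 0.67 ± 0.14, and Rad50, of double-strand break repair, fell by 0.55 ± 0.081. Ogg1, which removes oxidised guanine, was at -0.15 ± 0.12 (adjusted p = 0.36, and -0.28 without animal 2, adjusted p = 0.040).

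Chaperones of the endoplasmic reticulum had 12 of 26 tested members called higher and 3 lower (median 0.17), with Sdf2l1 and Hspa5 up by 0.97 ± 0.11 and 0.45 ± 0.074. Of genes for glucose use and low oxygen, 14 of 22 tested members (1 passed the filter only through exposed groups) were called higher and 3 lower, with a median change of 0.34. Hk3, the hexokinase of white blood cells, rose by 3.34 ± 0.24, Ldha by 0.61 ± 0.077, and Epas1, the low-oxygen factor of endothelium, fell by 0.95 ± 0.14. The respiratory chain had 8 of 40 tested members called higher and 2 lower (median 0.030), beside the same background shares of 18.4% and 16.4%. Immediate early genes, which answer stimuli within minutes and can also answer tissue handling, had 3 of 22 tested members called higher and 11 lower (median -0.34). Atf3 and Egr2 rose by 2.29 ± 0.20 and 1.74 ± 0.15, Jun, Dusp1 and Klf4 fell by 1.26 ± 0.15, 1.40 ± 0.22 and 1.37 ± 0.14, and Fos was at 0.11 ± 0.31 (adjusted p = 0.82). Clock genes had 3 of 18 tested members called higher and 6 lower (median -0.11), and 1 passed the filter only through exposed groups. Per1 fell by 1.39 ± 0.23 and Bhlhe40 rose by 1.41 ± 0.12. Dbp, the output gene with a steep daily swing, was at -0.043 ± 0.36 (adjusted p = 0.94). The times of day at which lungs were taken are not given in the labels.

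Neural and neuroendocrine genes held some of the largest changes in either direction. Of 22 members tested among 27 listed, 4 were called higher and 8 lower, with a median change of -0.13, and 2 passed the filter only through exposed groups. Npy, neuropeptide Y, was 0.00029, 0.15, -0.13, 0.011 and -0.40 in the controls and 4.23, 3.19, 3.80, 3.67 and 4.27 in the exposed lungs. It was not well above background in any control and rose at least 15.0-fold (adjusted p = 6.5e-09 by limma). Npy too passed the filter only through exposed groups, so that p is no support for its rise. Bex2 was 4.31, 4.23, 3.19, 3.58 and 3.20 in the controls and 1.15, 1.60, 1.02, 1.28 and 1.15 in the exposed lungs. Bex4 was 4.82, 5.00, 4.32, 3.99 and 4.33 in the controls and 2.14, 2.35, 1.73, 2.77 and 2.36 in the exposed lungs. Both are small X-linked genes of the brain expressed X-linked family, and no exposed lung reached the controls in either. They fell by 2.46 ± 0.22 (adjusted p = 1.3e-08) and 2.22 ± 0.25 (adjusted p = 3.7e-07), and their neighbour Bex1 rose by 1.86 ± 0.30. The family members are close copies, so a probe may read more than its own gene. Calca, a peptide gene of neuroendocrine cells, was at 0.15 ± 0.19 (adjusted p = 0.59).

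Among the 12 largest rises, 2 genes were on no list. Wfdc17, a small secreted inhibitor of proteases made by macrophages, was 1.53, 1.41, 2.37, 0.83 and 1.27 in the controls and 5.61, 5.13, 5.47, 5.07 and 5.37 in the exposed lungs. Lilr4b, an inhibitory receptor of myeloid cells, was -1.43, -1.83, -1.13, -1.79 and -1.20 in the controls and 2.39, 2.02, 2.59, 2.06 and 2.72 in the exposed lungs. Neither group overlapped with the other in these genes, and the rises were 3.85 ± 0.29 (adjusted p = 1.9e-09) and 3.83 ± 0.26 (adjusted p = 4.8e-10). Further genes on no list among the 25 largest rises were Lilrb4a, its close copy, at 3.82, Rgs1, a regulator of chemokine receptor signalling, at 3.69, AA467197 at 3.55, Lhfpl2 at 3.42 and Gp2. Gp2, a glycoprotein that marks the cells sampling antigen over lymphoid tissue, was not well above background in any control and rose at least 10.4-fold. The same held for Dmbt1, a mucosal defence protein, at least 5.50-fold, for the adhesion protein Chl1, at least 8.79-fold, and for Prss46, Cd200r2, Corin, Cdhr1 and Serpinb5, at least 5.67, 4.58, 4.50, 4.31 and 4.33-fold. Serpinb5 was 3.33 in exposed animal 2 and 0.99 to 1.52 in the other exposed lungs, so animal 2 raised the mean behind its bound. In all, 56 of the 14838 tested genes with a symbol were not well above background in any control and were so in all 5 exposed lungs. They were picked by that pattern, so their rise is no separate result, and genes with the reverse pattern were not counted. By the Cy5 signal alone, 24 of the 56 rose at least 2-fold over the lowest signal well above background. One of the 24, Slc5a1, had a smaller fold of 1.90. Not all of the 56 were called by limma: Kng2, Has2, Neil3, Ptx3 and 2700099C18Rik had adjusted p of 0.11, 0.29, 0.11, 0.36 and 0.23.

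The largest falls held genes of several cell types. Colq, the collagen tail that anchors acetylcholinesterase, was 4.35, 3.83, 4.51, 4.61 and 4.22 in the controls and 2.01, 2.62, 1.29, 2.59 and 1.72 in the exposed lungs. Prex2, an activator of the GTPase Rac, was 2.44, 2.78, 2.54, 3.60 and 2.34 in the controls and -0.49, 1.43, -0.16, 1.48 and -0.38 in the exposed lungs. In Prex2 exposed animals 2 and 4 were closer to the controls than the other 3, yet no exposed lung reached the lowest control. Colq fell by 2.26 ± 0.31 (adjusted p = 4.6e-06) and Prex2 fell by 2.36 ± 0.56 (adjusted p = 0.0018). Cox8b, a respiratory chain subunit of muscle and brown fat, was 4.10, 5.95, 3.76, 3.20 and 2.62 in the controls and 1.16, 2.54, 1.08, 2.40 and 1.61 in the exposed lungs, and fell by 2.17 ± 0.43 (adjusted p = 0.00033) with the controls spread widely. Fibin was 2.42, 2.88, 2.34, 2.88 and 2.69 in the controls and 0.24, 1.20, 0.74, 1.51 and 0.17 in the exposed lungs. Asgr1, a receptor for desialylated glycoproteins, was 0.50, 0.32, 1.03, 0.98 and 0.54 in the controls and -1.01, -0.99, -1.89, -1.53 and -0.86 in the exposed lungs. Both fell in every exposed lung, by 1.87 ± 0.27 (adjusted p = 8.5e-06) and 1.93 ± 0.37 (adjusted p = 0.00027). Cavin2, a partner of the caveolins, fell by 1.60 ± 0.16, the small proteoglycan Ogn by 1.58 ± 0.21, the intermediate filament gene Synm by 1.74 ± 0.18 and the secreted Scube2 by 1.64 ± 0.18. For Colq the smallest fall among its probes was 0.49.

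**Figure D4:**
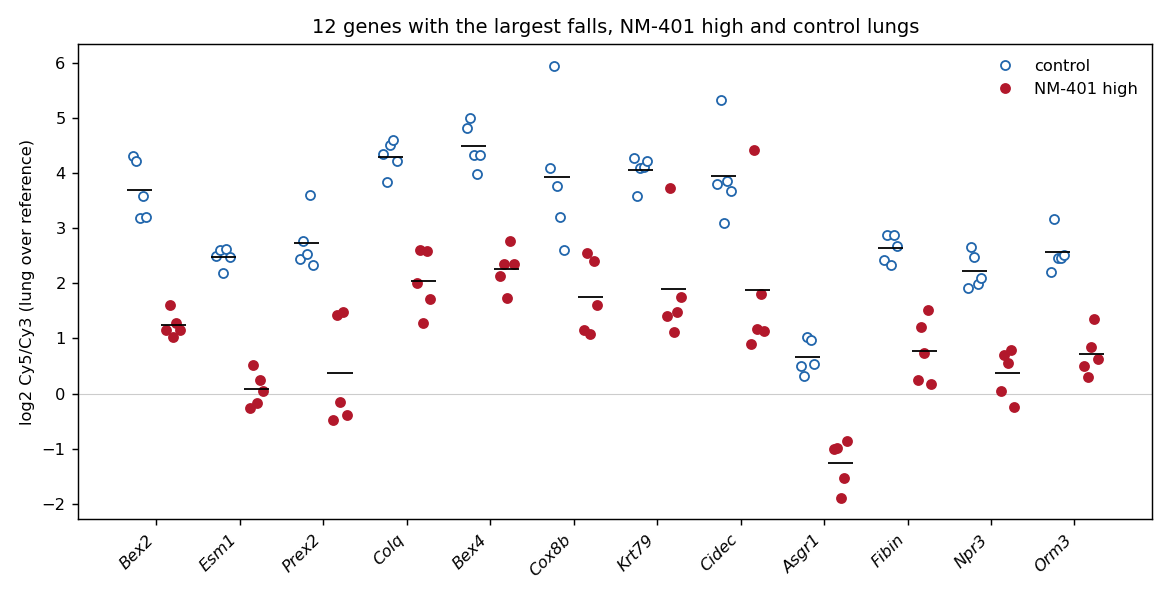
The plot shows the log2 Cy5/Cy3 ratio of the 12 genes with the largest falls in each control lung (open circles) and each NM-401 high lung (filled circles), with a bar at each group mean. Krt79 and Cidec are the genes in which an exposed lung, animal 2, lies inside the control range.

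The step from the lower to the higher dose of NM-401 was tested without the controls. Of all features 881, 3.84%, were called: 618 higher at 128 µg than at 42.7 µg, 2.69%, and 263 lower, 1.15%. Lysosomal genes made 23 of the calls, all higher and out of 45 tested, and the lipid-laden macrophage list 18 of 30. The transitional cell list had 9 higher, the unfolded protein list 7 higher, the endothelial list 7 lower, and the growth factor list 3 higher and 7 lower. Gpnmb averaged -2.41 ± 0.36 (SD, n = 5) in the controls, 0.92 ± 0.87 at the lower dose and 2.64 ± 0.63 at the higher, a step of 1.72 ± 0.35. Spp1 stepped up by 1.82 ± 0.40, Ccl2 by 1.48 ± 0.38, Krt14 by 1.5 ± 0.35, Krt5 by 1.44 ± 0.33, Gp2 by 2.13 ± 0.50, Hk3 by 1.45 ± 0.24 and Lilr4b by 1.43 ± 0.26. Steps down were largest in Fabp1 at -2.24 ± 0.54, Gm15772 at -2.22 ± 0.45, Esm1 at -1.41 ± 0.29, Bex4 at -1.12 ± 0.25 and Gsta3 at -1.05 ± 0.19. No interferon gene was called by limma, 1 of 39 having an unadjusted p under 0.05, and Clca1, Saa3 and Muc5b were at 1.36 ± 0.86 (adjusted p = 0.42), 1.57 ± 0.46 (adjusted p = 0.058) and 0.45 ± 0.25 (adjusted p = 0.35). These calls rest on the spread shared over the 5 groups. A fit of the 2 NM-401 groups alone called 0 features, with array column as a block 0 and with slide as a block 1562; counts at an unadjusted p under 0.05 were 3712 and 3317. Leaving out single animals gave 183 to 1232 calls, the fewest without lower-dose animal 4; 222 were left without lower-dose animal 1, and 301 and 209 without higher-dose animals 3 and 5. In the authors' values 58.9% of the dose calls were higher at the higher dose, against 70.1% here.

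**Figure D5:**
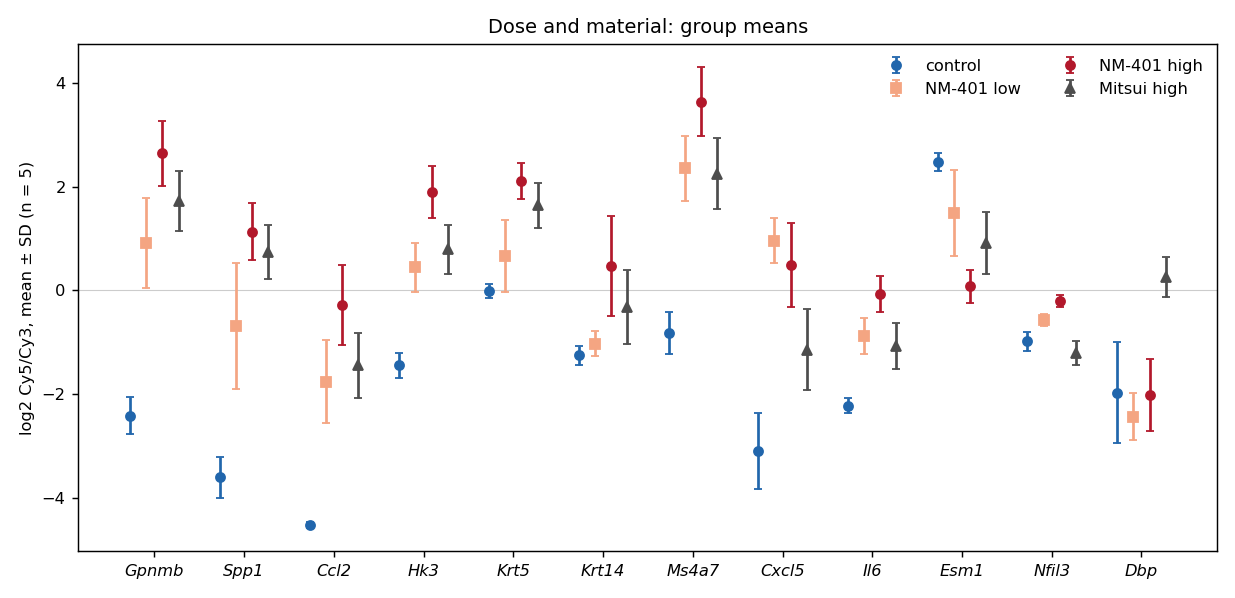
The plot shows the group mean ± SD (n = 5) of the log2 ratio in the control, NM-401 low, NM-401 high and Mitsui high groups for 12 genes with the dose or material steps described. Gpnmb, Spp1, Ccl2, Hk3 and Krt14 rise from the lower to the higher NM-401 dose, and Dbp is lower in the NM-401 high than in the Mitsui high group.

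Against the same dose of Mitsui XNRi-7, few features differed. Of all features 182, 0.793%, were called, 106 higher with NM-401, 0.462%, and 76 lower, 0.331%. Higher with NM-401 were Cxcl5 by 1.63 ± 0.39, Ms4a7 by 1.39 ± 0.32, Hk3 by 1.11 ± 0.24, Il6 by 1.01 ± 0.21, Atf3 by 0.90 ± 0.20, the lipid mediator receptor Ptafr by 1.47 ± 0.35 and Klk1 by 0.93 ± 0.21. Clock genes gave 2 higher and 5 lower calls of 18 tested: Nfil3 and Arntl were higher by 1.00 ± 0.10 and 0.89 ± 0.14, and Dbp, Tef and Nr1d2 differed by -2.27 ± 0.36, -0.96 ± 0.14 and -0.87 ± 0.19. The clock list means ran from -0.23 to -0.029 in NM-401 high, from 0.10 to 0.27 in Mitsui high and from -0.17 to 0.30 in the controls. Dbp was not called in NM-401 high against the controls. The labels do not give the time of day of collection, and its part was not tested. Growth factor genes gave 4 lower calls, among them Ccn2 at -0.78 ± 0.14. Gpnmb, Trem2 and Spp1 differed by 0.93 ± 0.35 (adjusted p = 0.17), 0.87 ± 0.29 (adjusted p = 0.12) and 0.40 ± 0.40 (adjusted p = 0.66), and Clca1 by 0.016 ± 0.86 (adjusted p = 1.0), not called. The 95% interval of the fit for those 4 differences ran from 0.21 to 1.64, 0.28 to 1.46, -0.42 to 1.22 and -1.75 to 1.78. This comparison also leans on single animals. It called 913 features without NM-401 high animal 2 and 83, 9 and 26 without NM-401 high animals 1, 3 and 5. Without Mitsui high animals 2, 3, 4 and 5 it called 6, 7, 44 and 899. The fit of the 2 groups alone called 4. In the authors' values 42.0% of the calls were higher with NM-401, against 58.2% here.

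Spread among the 5 exposed lungs was widest, by standard deviation over all genes with a symbol, in Rnu3b1 at 2.49, Cfd at 2.45, Trim12a at 2.28, Car3 at 2.03, Itln1 at 2.01, Adipoq at 2.00, Hal at 1.88, Gm15056 at 1.74, Serpina1a at 1.73 and Mup19 at 1.72. Adipoq spread as widely among the controls, with an SD of 2.00, as did Cfd at 1.90. Itln1 and Serpina1a did not, with control SDs of 0.28 and 0.50. Serpina1a, an antitrypsin gene known chiefly from liver, was 3.07, 3.58, 0.66, 0.88 and 4.63 in exposed animals 1 to 5, and Mup19, a urinary protein gene, was 3.40, 3.28, 0.20, 1.03 and 4.21. Animal 5 was the highest in both.

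Some calls near the threshold rested on single animals, since leaving 1 animal out ended them. Col4a3 was between -0.45 and -0.34 without control 4 or exposed animal 3. Cspg4 was between 0.35 and 0.48 without exposed animal 1 or 2. Cyp1b1 was between 0.36 and 0.52 without control 1, 4 or 5 or exposed animal 2. Cyp2f2 was between -0.46 and -0.37 without control 3, 4 or 5 or exposed animal 3, 4 or 5. Fabp1 was between -1.50 and -1.32 without control 3 or 5 or exposed animal 1, 3 or 4. Gzma was between -0.78 and -0.57 without control 1, 2 or 5 or exposed animal 1 or 2. H2-Aa was between 0.46 and 0.50 without control 4 or exposed animal 2, 3 or 5. Hopx was between -0.30 and -0.26 without control 3 or 4 or exposed animal 3. Itln1 was at 1.83 without exposed animal 2. Pdpn was between 0.36 and 0.40 without control 1 or 2 or exposed animal 4 or 5. Pecam1 was between -0.45 and -0.37 without control 1, 3, 4 or 5 or exposed animal 1, 3 or 5. Reg3g was at 2.07 without exposed animal 4. Rsad2 was at 1.34 without exposed animal 3. Sftpa1 was between 0.26 and 0.33 without control 2, 3 or 5 or exposed animal 1, 2 or 5. Stab1 was at -0.20 without control 4 or exposed animal 5. Tgfb2 was between -0.32 and -0.28 without control 3 or exposed animal 3. Other genes were called once 1 animal was left out. Without exposed animal 1 this held for Cma1 at 0.71, Cpa3 at 1.04, Kdr at -0.37 and Tpsb2 at 0.51. Without exposed animal 2 this held for Abcg1 at 0.41, Adipoq at -1.71, Cfd at -2.29, Il1a at 0.33, Ogg1 at -0.28, Plin1 at -1.43, Retn at -1.67 and Scgb1a1 at -0.58. Without exposed animal 4 this held for Fga at 1.04 and Tpsb2 at 0.49. Without control 1 this held for Ccr2 at 0.44. Without control 2 this held for Cxcl13 at 1.45, Fabp4 at 1.25 and Tpsb2 at 0.54. Without control 3 this held for Asah1 at 0.37 and Foxj1 at 0.44. Without control 4 this held for Foxj1 at 0.46, Ms4a1 at -0.73 and Msln at -0.63.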

How the data were processed

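Total lung RNA was read on 26 Agilent 2-colour arrays of 25 mice in 5 groups, of which 1 mouse, outside the 2 groups compared here, had 2 arrays that were averaged. Groups came from the labels. The gene lists, the genes named and the comparisons were chosen with earlier results of these data known.

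The authors deposited the scanner output: median spot and background intensity in both dyes, the log10 ratio of Cy5 over Cy3 and flags for outlier and background spots, all written by Agilent Feature Extraction per the file headers. They also deposited a table of log2 ratios whose normalisation is not given in the sources used here, correlating at 0.988 or more with the loess ratios of each array and with column medians between -0.040 and -0.018, so scale and direction are known and the centring is near 0. The dye assignment is per the labels' protocols.

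From the intensities, background was corrected by normexp (offset 50), arrays were normalised within themselves by loess, outlier spots (0.461%) were left out and spots of a probe averaged. Of 55681 probes, 27235 carried a gene symbol, taken from RefSeq by the accession that the arrays give. A probe was kept where the software set its Cy5 above background in 4 or more animals of any group, and the brightest kept probe stood for a gene, which left 22950 features. limma 3.58.1 in R 4.3.3 fitted 1 mean per group over all 25 animals; p-values were adjusted by Benjamini-Hochberg over all features and called under 0.05. A bound is the smaller of 2 folds, that of the exposed mean Cy5 over the lowest Cy5 well above background and that of the ratios. It is an estimate from group means and leaves out the spread between animals. Taking the smaller was chosen after the values were seen. Among the 10 arrays compared, 48.2% to 62.1% of probes were well above background, and 5 animals a group limit the precision.

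Genes are named by rule: the 25 largest called rises and falls, the 10 largest bounds, up to 8 called and 3 uncalled members of each of the 49 lists, defining markers, the 8 largest called differences each way in the other comparisons, and the 10 genes of widest spread. Some of these are not reported here, and it adds a few list members and neighbours chosen after their values were seen. Alternatives changed the background correction, normalisation, filter, probe choice, block, variance model, threshold and animals included.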

Additional observations from a re-analysis of the deposited data

Results flagged for a closer look

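Of 740 groups of 5 values checked, that is each named gene or list in the controls and in the exposed lungs, 50 held an animal far from the other 4: its gap to the nearest of them was larger, as a share of the group's whole range, than Dixon's 95% critical value. Chance alone marks about 1 in 20 groups. Of the 50, 18 were in exposed animal 2. Values are log2 ratios, or for a list its mean relative to the controls. In exposed animal 2 these were Adipoq at 4.77, Cfd at 8.24, Cidec at 4.42, Cyp1b1 at -0.54, Fabp4 at 5.78, Gdf15 at -0.81, Igf1 at 1.76, Krt14 at 2.16, Krt5 at 2.72, Krt79 at 3.74, Marco at 6.09, Pdgfc at -2.36, Plin1 at 3.27, Retn at 3.42, Rgs1 at 1.93, Serpinb5 at 3.33, Siglec1 at 2.87 and Xist at -3.04. In exposed animal 1 these were Itgax at 5.27, Manba at 1.24 and Stab1 at 3.21. In exposed animal 3 these were Tnf at 0.59 and the mean of the neuropeptide and nerve list at -0.28. In exposed animal 4 these were Cd79a at 1.48, Hal at -0.57 and Prdx6 at 2.83. In exposed animal 5 this was Trim12a at -0.77. In control 1 these were Itgam at 1.08, Jun at 1.36, Muc5b at 2.61, Spp1 at -4.30 and the mean of the endoplasmic reticulum chaperone list at -0.080. In control 2 these were Cxcl13 at 4.31, Cxcl9 at 1.45, Fasn at 3.08, Foxp3 at 0.46, Gm15056 at 2.16, Jchain at -1.08, Krt79 at 3.60, Orm1 at 1.17, Plin1 at 4.53, Pparg at 1.32 and Sftpb at 6.39. In control 3 these were Clca1 at 0.34, Clock at 0.48, Mitf at -0.43 and Trim12a at 3.85. In control 4 these were Calca at 2.06 and Csf2rb at 0.53. In control 5 this was Klk1 at 1.64.

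NM-401 high and Mitsui high lungs differed in 18 of the 321 named genes by limma, tested on the difference itself. Over all features 182 of 22950 were called, 0.793%. Some genes were named because they were among the largest called differences of this comparison, so the 18 are no result about the named genes. Higher with NM-401 were Arntl by 0.89, Atf3 by 0.90, Cxcl5 by 1.63, Hk3 by 1.11, Il1rn by 0.68, Il6 by 1.01, Klk1 by 0.93, Ms4a7 by 1.39, Nfil3 by 1.00 and Ptafr by 1.47. Lower, with the difference NM-401 minus Mitsui, were Acta2 at -0.54, Ccn2 at -0.78, Dbp at -2.27, Efnb2 at -0.66, Gm15772 at -2.57, Nr1d2 at -0.87, Tef at -0.96 and Vegfd at -0.73.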

How the results depend on the processing

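The comparison with the controls called 7976 features. It called 6943 to 7746 when 1 animal was left out, 2620 when a 1.5-fold change was also asked for and 1064 with median centring, which moved the median of all features to 0.17; the other alternatives gave 6291 (array column as a block) to 9406 (slide as a block). The dose comparison called 881. It called 280 at 1.5-fold, 8 with median centring, 1562 with slide as a block, 0 by limma with array column as a block or on the 2 groups alone (3317 and 3712 at an unadjusted p under 0.05), and 183 to 1232 with 1 animal left out. The comparison with Mitsui high called 182. It called 66 at 1.5-fold, 36 with plain background subtraction, 39 with the scanner software's ratios (43.6% higher), 0 by limma with median centring (1356 at an unadjusted p under 0.05), 94 without the brightness filter, 510 with slide as a block (40.6% higher), 2 with array column as a block, 4 on the 2 groups alone, and 6 to 913 with 1 animal left out. With replicate number as a block the 3 comparisons called 7839, 919 and 244. Whether the numbers pair the animals was not settled. Deviations of same-numbered exposed and control lungs correlated at -0.16, -0.005, -0.097, 0.11 and 0.22. Same-numbered NM-401 high and low lungs correlated at -0.044 to 0.27, and NM-401 high and Mitsui high lungs at -0.001 to 0.296. Lungs with different numbers were not compared in this way.

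Named genes turned direction in 5 cases: H2-Aa was at -0.032 with the scanner software's ratios, Hopx at 0.15 and Stab1 at 0.0088 with median centring, Timp2 at 0.091 as the median of its probes, and Xist at 0.53 without exposed animal 2, against a lowest value of -0.41 without exposed animal 3. Median centring took the call from 119 of 321 named genes. The cause of these changes was not tested. With median centring, 34 of the 49 list medians shifted by at least the SD of the list mean among the 5 exposed lungs. By the same measure, 15 shifted with the scanner software's ratios and 10 with plain background subtraction. Medians of 9 lists changed sign in some setting: B and plasma cells, cilia, clock, club cells, DNA repair, mast cells, matrix, other tissues and the respiratory chain.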
